A study of Mus musculus with 16 samples.

Results

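The genes described here are 35 that encode peroxisome assembly proteins and peroxisomal enzymes and transporters of lipid metabolism. They were found by matching listed symbols to the gene column of the deposited table, and all 35 were among its 24371 genes. The data are bulk RNA sequencing of 16 mouse heart samples in 4 groups of 4. All the mice had HFpEF (heart failure in which the ejection fraction is preserved), brought on by a 2-hit protocol of high-fat feeding and the nitric oxide synthase inhibitor L-NAME for 12 weeks, so no group shows hearts without the model. The floxed hearts came from Gpr91fl/fl mice, in which both alleles of the succinate receptor gene Gpr91 (current symbol Sucnr1) carry loxP sites. The Cre hearts carried the same alleles and Myh6Cre, a recombinase driven by a promoter active in cardiomyocytes, so other cell types of the heart keep the receptor gene. Mice of either genotype were given succinate or not; strain, age, sex, dose and route are not given in the sources used here. Whether the 4 samples of a group are 4 animals is not stated, and p-values therefore reflect the spread among samples, which may be technical.

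Peroxisomes are organelles with a single membrane that shorten very-long-chain and branched fatty acids, make the first intermediates of ether lipids, and break down the hydrogen peroxide that their oxidases release. Their proteins are made in the cytosol and imported by peroxins, the products of the Pex genes. Fatty acids enter as coenzyme A esters through ABCD transporters, pass through cycles of beta-oxidation, and leave as shortened acyl groups that mitochondria can finish. In heart and liver many of these genes are textbook targets of the fatty acid-activated receptor PPAR alpha.

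Library totals ran from 27835235 to 34700996 counts, and all 35 genes passed the filter on low counts that left 14607 genes for testing. After scaling to library size, a floor of 3 counts lay at 0.0865 to 0.108 CPM. Sucnr1 had 0 to 7 counts in the floxed libraries and 2 to 21 in the Cre libraries, with sums of 20 and 63 counts, so at this depth its level could not check the Cre label. All 10 cardiomyocyte markers were present in every library. Replicate 1 of the untreated Cre hearts and replicate 4 of the untreated floxed hearts correlated least with the other libraries of their groups. Bulk RNA cannot tell fewer cells of a type from less RNA per cell.

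Levels are given as the authors' FPKM, read counts scaled by library total and divided by gene length, which allows a comparison between genes. The median of the 35 mean levels was 9.03 FPKM. Ech1, a dienoyl-CoA isomerase found in peroxisomes and mitochondria, had the highest level at 1455 FPKM and made up 57.7% of the summed FPKM of the 35 genes (51.1% to 64.2% over samples). Phyh, the hydroxylase that starts the alpha-oxidation of phytanic acid, followed at 318 FPKM. Cat, the catalase that breaks down hydrogen peroxide, and Crat, a carnitine acetyltransferase, had means of 119 and 113 FPKM. In all, 10 genes had means under 5 FPKM, among them Abcd2, a transporter of very-long-chain acyl groups, and Hacl1, the lyase of alpha-oxidation. Acaa1b, a peroxisomal thiolase, was the lowest of these at 0.0786 FPKM. The members lie on 17 chromosomes.

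**Figure D1:**
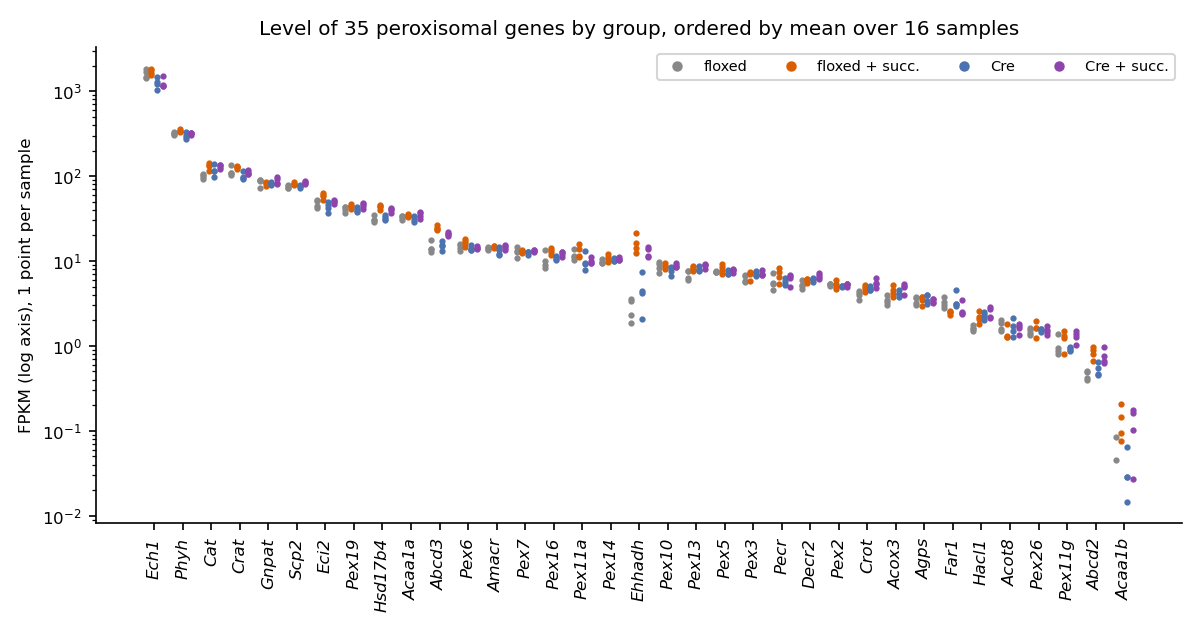
Level of each of the 35 genes in each sample, as deposited FPKM on a log axis, ordered by the mean over 16 samples, with 1 point per sample and 1 colour per group. Ech1 stands highest and Acaa1b lowest, where 2 untreated floxed samples at 0 cannot be drawn, and the groups given succinate stand clearly apart for Ehhadh and Abcd3.

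The promoters of Ehhadh and Abcd3 are shown because these were the members that passed the test with succinate in both genotypes. That of Cat is shown as an example of the 4 member windows that hold a core site of nuclear receptors. Each sequence is from RefSeq on the GRCm38.p6 build, runs from 250 bases before to 50 bases after a gene start, and is written in the direction of transcription. All are on the minus strand, at chr16:21787785-21788084 for Ehhadh, chr3:121815253-121815552 for Abcd3 (the first of 2 listed starts) and chr2:103485104-103485403 for Cat. Capitals mark the core site AGGTCA.
Ehhadh: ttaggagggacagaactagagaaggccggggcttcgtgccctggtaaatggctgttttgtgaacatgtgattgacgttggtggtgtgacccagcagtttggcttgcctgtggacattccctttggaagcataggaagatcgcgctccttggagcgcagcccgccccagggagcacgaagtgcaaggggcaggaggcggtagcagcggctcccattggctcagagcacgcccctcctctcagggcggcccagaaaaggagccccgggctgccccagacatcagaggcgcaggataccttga
Abcd3: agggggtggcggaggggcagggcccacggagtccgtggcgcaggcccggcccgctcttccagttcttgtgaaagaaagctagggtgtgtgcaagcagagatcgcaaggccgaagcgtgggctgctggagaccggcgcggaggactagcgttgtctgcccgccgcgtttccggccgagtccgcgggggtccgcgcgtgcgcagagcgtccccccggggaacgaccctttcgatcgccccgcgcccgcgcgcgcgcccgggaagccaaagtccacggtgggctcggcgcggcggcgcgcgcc
Cat: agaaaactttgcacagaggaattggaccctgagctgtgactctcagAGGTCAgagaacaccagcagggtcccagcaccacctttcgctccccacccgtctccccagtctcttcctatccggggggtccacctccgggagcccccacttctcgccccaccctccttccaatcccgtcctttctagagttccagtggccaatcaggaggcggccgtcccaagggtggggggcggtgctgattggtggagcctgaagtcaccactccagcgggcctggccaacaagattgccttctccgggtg
The core site lay 204 bases before the Cat start. Promoters were found for 29 of the 35 genes, as 33 windows. The direct repeat bound by PPAR and RXR pairs, 2 copies of AGGNCA with 1 base between them, was searched on both strands and was in 0 of these 33 windows and in 125 of all 32851 windows (0.381%). The core site AGGTCA, which is 1 form of those copies and was also searched on both strands, was in 4 of the 33 (12.1%), against 16.3% of all windows. Those 4 were the windows of Cat, Scp2, Phyh and Pex11g. Scp2, Phyh and Pex11g did not pass with succinate in floxed hearts, while Scp2 passed averaged over both genotypes. In FPKM every treated sample was above every untreated one for Scp2 and Phyh in floxed hearts. The same held for Scp2 and Pex11g in Cre hearts. A link between the site and the response was not tested. The member windows had a median GC content of 58.3% and a median of 19 CpG sites, against 52.7% and 7 over all windows. These matches describe the letters of a short window only.

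Succinate in floxed hearts went with higher RNA of 10 of the 35 genes, and no member passed the test in the lower direction. Over all tested genes 7.48% were called higher and 5.64% lower (13.1% in either direction). The 10 were spread over most roles: Ehhadh, Hsd17b4 and Acox3 of core beta-oxidation, both transporters Abcd2 and Abcd3, Eci2, Hacl1, Crot, Pex16 and Cat. The median log2 fold change of the 35 was 0.22, against 0.00 over all genes. Of the 35, 32 were positive, as were 7346 of all 14607 tested genes. Tests were edgeR's quasi-likelihood F-test with Benjamini-Hochberg adjustment over all 14607 genes and a threshold of 0.05. Another 25 members did not pass, and 18 of the 35 had an unadjusted p under 0.05, as did 4145 of all 14607 genes.

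**Figure D2:**
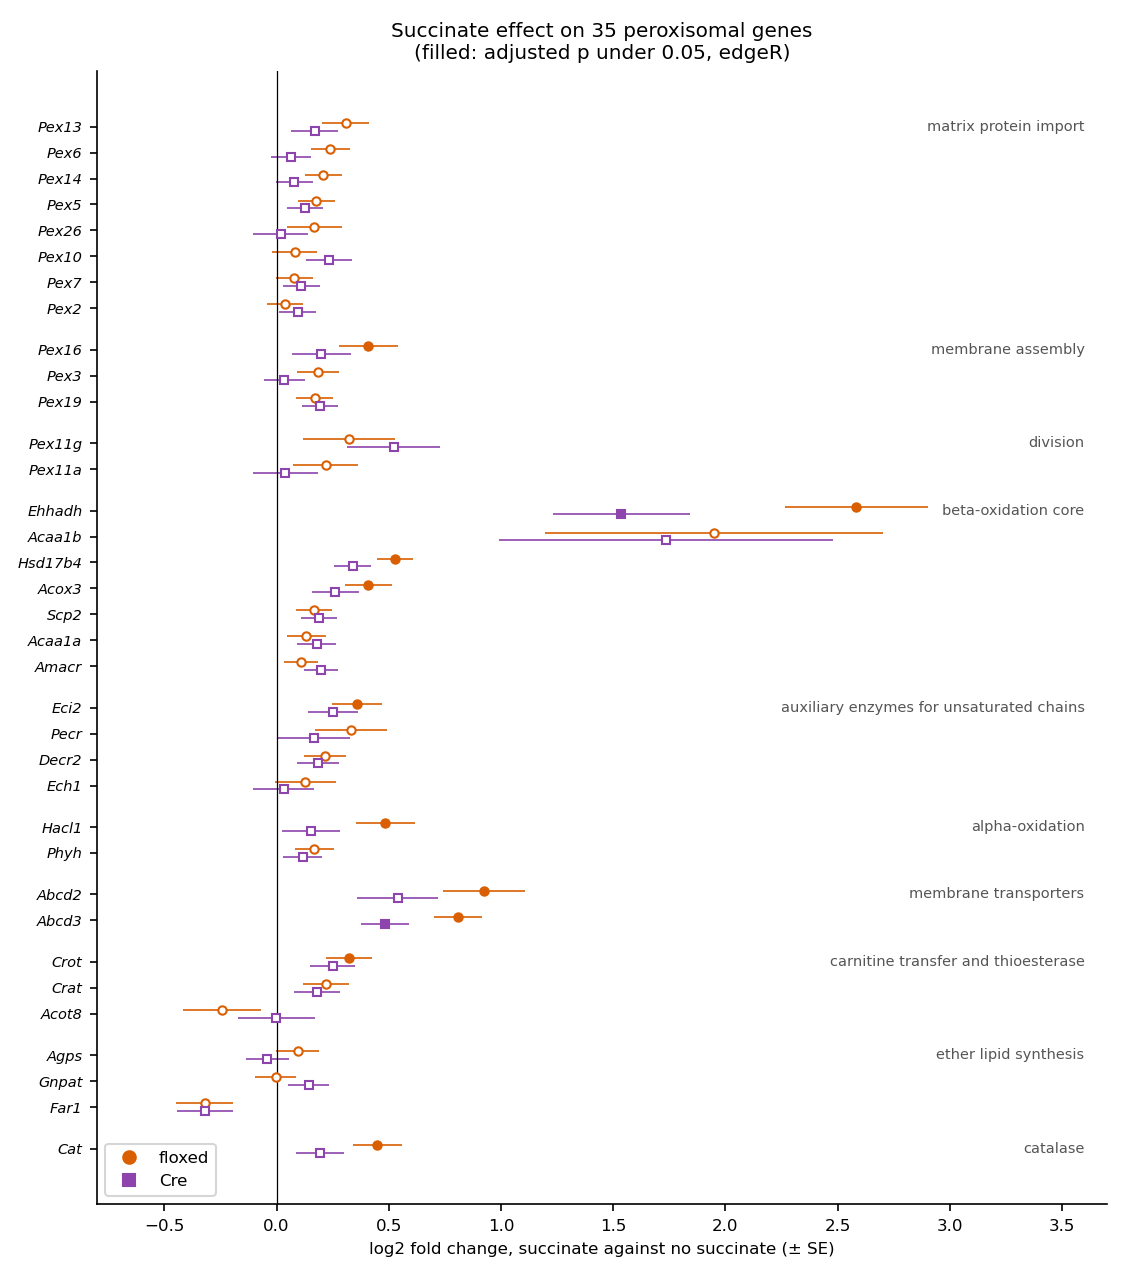
Log2 fold change with succinate (horizontal axis, bars ± SE) for each gene, in floxed hearts (orange circles) and Cre hearts (purple squares), ordered by role, with filled symbols where the adjusted p is under 0.05. Ehhadh lies furthest to the right in floxed hearts and Acaa1b, with wide error bars, in Cre hearts; 10 floxed and 2 Cre symbols are filled, and Far1 lies left of 0 in both.

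Of the 7 genes of core beta-oxidation, 3 rose with succinate in floxed hearts and the other 4 did not pass. Ehhadh encodes the L-bifunctional enzyme, which carries out the hydration and dehydrogenation steps. Its FPKM was 1.87, 3.56, 2.28 and 3.37 in untreated floxed hearts and 16.3, 14.1, 21.5 and 12.5 with succinate. The groups did not overlap, and every treated sample stood far above every untreated sample. Ehhadh rose 5.99-fold (log2 fold change 2.58 ± 0.32 SE, adjusted p = 0.000261). Hsd17b4 encodes the D-bifunctional enzyme, which does the same steps on the other stereoisomer and handles branched chains. Its FPKM was 30.3, 34.9, 30.6 and 28.7 without and 43.2, 44.9, 45.1 and 40.1 with succinate, again without overlap. The log2 fold change of Hsd17b4 was 0.53 ± 0.08 (adjusted p = 0.000657).

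Acox3 is an acyl-CoA oxidase for branched chains and catalyses the first step. Its FPKM was 3.50, 4.0, 3.27 and 3.02 in untreated floxed hearts and 5.21, 4.54, 4.18 and 3.75 with succinate. The lowest treated sample fell within the untreated range, and the log2 fold change was 0.41 ± 0.10 (adjusted p = 0.0162). The thiolases of the last step were not called in floxed hearts. Acaa1a had a log2 fold change of 0.13 ± 0.09, and Scp2, a thiolase and sterol carrier, 0.17 ± 0.08. Acaa1b had only 0, 6, 0 and 3 counts without and 7, 5, 10 and 13 with succinate, and its log2 fold change of 1.95 ± 0.75 did not pass (adjusted p = 0.095). Transcripts of Acaa1a and Acaa1b were 96.0% identical over 1450 aligned bases, so the division of reads between them is uncertain; with both summed, the log2 fold change was 0.14. Amacr, the racemase that makes branched acyl groups fit for oxidation, had a value of 0.11 ± 0.08.

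Both transporters of the peroxisomal membrane rose. Abcd3, also known as PMP70, carries dicarboxylic and branched-chain acyl groups. Its FPKM was 13.9, 17.6, 12.9 and 14.0 in untreated floxed hearts and 26.8, 24.3, 24.0 and 23.4 with succinate. The groups did not overlap, and the log2 fold change was 0.81 ± 0.11 (adjusted p = 0.000214). Abcd2 was at 0.397, 0.489, 0.421 and 0.511 FPKM without and 0.978, 0.665, 0.896 and 0.794 FPKM with succinate. It did not overlap either, and rose by 0.93 ± 0.18 on the log2 scale (adjusted p = 0.00357).

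Among the 4 auxiliary enzymes that handle double bonds, Eci2, an enoyl-CoA isomerase, rose. Its FPKM was 42.0, 52.6, 43.9 and 50.3 without and 59.1, 58.5, 52.4 and 63.6 with succinate, with 1 treated sample just below the highest untreated one. The log2 fold change was 0.36 ± 0.11 (adjusted p = 0.0413). Decr2, a dienoyl-CoA reductase, and Pecr, a trans-enoyl-CoA reductase, had values of 0.22 ± 0.09 and 0.33 ± 0.16, and Ech1 0.13 ± 0.14; none passed.

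Of the alpha-oxidation pair, Hacl1 rose. Its FPKM was 1.58, 1.74, 1.62 and 1.5 in untreated floxed hearts and 2.58, 2.21, 2.09 and 1.80 with succinate, without overlap (log2 fold change 0.48 ± 0.13, adjusted p = 0.022). Phyh also did not overlap, but its log2 fold change of 0.17 ± 0.09 did not pass (adjusted p = 0.218). Crot, the carnitine octanoyltransferase that readies shortened chains for export, was at 4.37, 4.2, 3.96 and 3.47 FPKM without and 5.25, 4.33, 5.0 and 4.71 FPKM with succinate. It rose by 0.32 ± 0.10 (adjusted p = 0.0467), with 1 treated sample inside the untreated range. Crat had a value of 0.22 ± 0.10 and Acot8, a peroxisomal thioesterase, -0.24 ± 0.17, and neither passed.

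Catalase RNA rose in floxed hearts. Cat was at 102, 105, 97.7 and 92.6 FPKM without and 144, 132, 134 and 114 FPKM with succinate, without overlap (log2 fold change 0.45 ± 0.11, adjusted p = 0.0125). None of the 3 ether lipid genes passed. Far1, the fatty acyl-CoA reductase that supplies fatty alcohol for ether lipids, pointed the other way. Its FPKM was 3.32, 2.76, 3.73 and 3.06 without and 2.53, 2.52, 2.32 and 2.58 with succinate, so every treated sample was below every untreated sample. The log2 fold change was -0.32 ± 0.13 (adjusted p = 0.0986). Gnpat and Agps, the acyltransferase and the alkyl synthase of the next steps, had values of -0.00 ± 0.09 and 0.09 ± 0.10.

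Among the assembly and division genes, Pex16 alone passed in floxed hearts. None of the 8 matrix import genes passed in floxed hearts, although all 8 log2 fold changes were positive (that of Pex2 was below 0 in log2 FPKM), from 0.04 for Pex2, a ubiquitin ligase of the import machinery, to 0.31 for Pex13, a docking protein. Pex13 was at 7.67, 6.02, 6.35 and 7.64 FPKM without and 8.51, 8.06, 7.67 and 8.84 FPKM with succinate (0.31 ± 0.10, adjusted p = 0.06). Between these ends were Pex6 (0.24), an ATPase that recycles the receptor, Pex14 (0.21), a docking protein, Pex5 (0.18), an import receptor, Pex26 (0.17), the anchor of the ATPase, Pex10 (0.08), another ubiquitin ligase, and Pex7 (0.08), another import receptor. Of the 3 genes that insert membrane proteins, Pex16 rose by 0.41 ± 0.13 (adjusted p = 0.0463). Its FPKM was 8.93, 10.1, 8.27 and 13.4 without and 11.8, 13.5, 12.8 and 14.3 with succinate, and untreated replicate 4 lay within the treated range. Pex3 and Pex19 had values of 0.19 ± 0.09 and 0.17 ± 0.08. The division genes Pex11a and Pex11g, which elongate the membrane, had values of 0.22 ± 0.14 and 0.32 ± 0.21.

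In deposited FPKM, 9 members were higher in all 4 treated than in all 4 untreated floxed samples, against 7.32% of all tested genes, and 1 (Far1) was lower, against 10.1%. Ehhadh, Hsd17b4, Abcd3 and Cat passed in all 20 alternative settings of this comparison, and Abcd2 in all 19 that tested it. Acox3 passed in 15, Hacl1 in 13, Eci2 in 11, Pex16 in 8 and Crot in 4 of 20. The count of 10 became 6 without replicate 1 and 5 without replicate 3 of the untreated floxed hearts. It was 5 without replicate 1 of the treated floxed hearts, and 5 in tests of log2 FPKM with either pseudocount. DESeq2 called 10 members higher and voom 14. Over all genes, 1093 were called higher in the main fit, and 637, 594 and 618 with those libraries left out. In log2 FPKM plus 1 and plus 0.1 they were 509 and 561 of 24371. DESeq2 called 1332 of 14447 genes higher and voom 1645 of 14607.

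**Figure D3:**
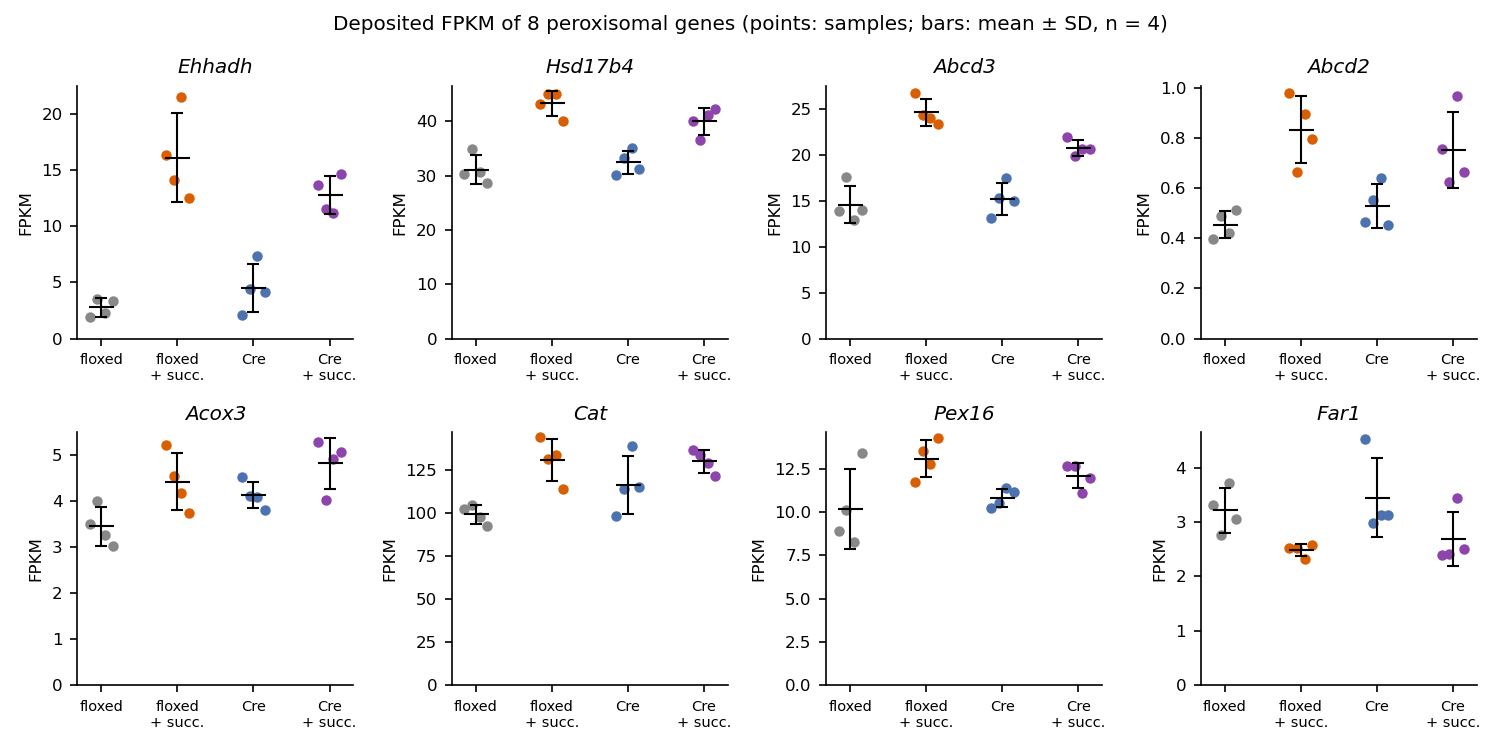
Deposited FPKM of 8 of the genes in each sample (points) with mean ± SD (bars, n = 4 per group) in floxed and Cre hearts with and without succinate. Treated hearts lie above untreated hearts of the same genotype for Ehhadh, Hsd17b4 and Abcd3, and every floxed sample given succinate lies below every untreated one for Far1.

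In Cre hearts 2 of the 35 genes rose with succinate and none fell, against 0.602% of all genes called higher and 0.315% lower (0.917% in all). These were Ehhadh and Abcd3, which also passed in floxed hearts. The median log2 fold change of the members was 0.18, against 0.01 over all genes. Of the members, 32 were positive (7499 of all 14607 genes), and 14 had an unadjusted p under 0.05 (2054 of all genes). Ehhadh was at 2.06, 4.41, 7.33 and 4.16 FPKM in untreated Cre hearts and 13.7, 11.6, 11.1 and 14.6 FPKM with succinate. The untreated hearts varied more than the treated ones without reaching them, and Ehhadh rose 2.90-fold (log2 fold change 1.54 ± 0.31, adjusted p = 0.0295). Abcd3 was at 13.1, 15.3, 17.4 and 15 FPKM without and 21.9, 19.8, 20.6 and 20.6 FPKM with succinate. It did not overlap and rose by 0.48 ± 0.11 (adjusted p = 0.0373).

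Without untreated Cre replicate 1 the median was 0.10 and 28 members were positive. The 2 calls were close to the threshold. Ehhadh passed in 12 and Abcd3 in 8 of all 20 alternative settings of this comparison. Of 8 fits that each left out 1 Cre sample, Ehhadh passed in 2 (without untreated replicate 1 or 3; adjusted p over the 8 fits 0.00704 to 0.1) and Abcd3 in 1 (without untreated replicate 3; 0.0218 to 0.165). Hsd17b4 was at 30.1, 33.3, 35 and 31.2 FPKM without and 40.1, 36.5, 41.1 and 42.2 FPKM with succinate. It did not overlap and had a log2 fold change of 0.34 ± 0.08 (adjusted p = 0.0558), and it passed in 3 of 20 alternative settings. Abcd2 (0.54 ± 0.18), Pex11g (0.52 ± 0.21), Acox3 (0.26 ± 0.10) and Crot (0.25 ± 0.10) did not pass. Pex11g was at 0.980, 0.890, 0.942 and 0.869 FPKM without and 1.26, 1.49, 1.38 and 1.02 FPKM with succinate in Cre hearts, without overlap. In the floxed hearts Pex11g overlapped, at 0.811, 0.948, 0.867 and 1.36 FPKM without and 1.30, 0.803, 1.5 and 1.22 FPKM with succinate. In all, 5 members were higher without overlap in Cre hearts (3.93% of all genes) and 0 lower (3.55%): Ehhadh, Hsd17b4, Abcd3, Scp2 and Pex11g.

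Cat, Hacl1, Pex16 and Eci2, which rose in floxed hearts, did not pass in Cre hearts. Cat was at 98.3, 114, 139 and 115 FPKM in untreated Cre hearts and 137, 134, 129 and 121 FPKM with succinate, and the groups overlapped (0.19 ± 0.11). Hacl1 was at 2.22, 2.40, 2.50 and 2.04 FPKM without and 2.11, 2.20, 2.91 and 2.74 FPKM with succinate in Cre hearts (0.15 ± 0.13). Pex16 was at 10.2, 10.5, 11.4 and 11.2 FPKM without and 12.7, 12.6, 11.1 and 12.0 FPKM with succinate (0.20 ± 0.13). Eci2 was at 36.8, 45.6, 48.9 and 41.6 FPKM without and 47.5, 52.9, 50.1 and 50.4 FPKM with succinate (0.25 ± 0.11). In each of these 4 genes at least 1 treated Cre sample lay within the untreated range.

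Averaged over both genotypes, succinate went with 15 members higher and 1 lower, against 10.6% and 8.45% of all genes (19.0% in all). This comparison is built from the previous ones. The 15 held all 10 genes that rose in floxed hearts and 5 more: Acaa1b (log2 fold change 1.84 ± 0.53, adjusted p = 0.0214), Pex13 (0.24 ± 0.07, adjusted p = 0.0311), Decr2 (0.20 ± 0.07, adjusted p = 0.0407), Scp2 (0.18 ± 0.06, adjusted p = 0.0352) and Pex19 (0.18 ± 0.06, adjusted p = 0.0345). Acaa1b summed to 9 and 10 counts in the untreated floxed and Cre hearts and to 35 and 34 counts in the treated ones. The division of reads between Acaa1b and Acaa1a is uncertain, and with both summed the joint row did not pass in this comparison. The gene that fell was Far1, at 4.53, 2.99, 3.13 and 3.13 FPKM in untreated Cre hearts and 2.39, 2.41, 3.44 and 2.51 FPKM with succinate. Its averaged log2 fold change was -0.32 ± 0.09 (adjusted p = 0.0177). Far1 passed in 26 of 27 alternative settings, while Pex13 passed in 17, Decr2 in 8, Pex19 in 12 and Scp2 in 13. Acaa1b passed in all 24 that tested it, although its counts were few. Without untreated Cre replicate 1 the count of 15 became 9, and it was 8 in log2 of FPKM with a pseudocount of 1.

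The difference between the genotypes' responses was tested directly. No member passed the interaction test (0.00% of all genes were called). In edgeR 2 of the 35, Ehhadh and Abcd3, had an unadjusted p under 0.05, as did 709 of all 14607 genes. DESeq2 called 0 members and 3 of all genes. For Ehhadh the Cre minus floxed difference in log2 fold change was -1.05 ± 0.43 (adjusted p = 0.97). For Abcd3 it was -0.32 ± 0.15 (adjusted p = 0.97). Neither response was thereby shown to differ between genotypes, nor to be alike. The floxed response was the larger for 24 members and the Cre response for 11. Over all tested genes these counts were 7225 and 7382. In both genotypes 31 members were positive, as were 37.2% of all tested genes. Across the 35 genes the responses correlated at Pearson r = 0.941 and Spearman rho = 0.703, and at 0.792 and 0.645 for the 33 without Ehhadh and Acaa1b; over all tested genes r was 0.572. Genes are not independent replicates, and all responses come from 1 fit.

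Genotype alone was followed by no called member in edgeR. Without succinate 0.110% of all genes were called (0.0890% higher and 0.0205% lower in Cre), and with succinate 0.691% (0.548% higher and 0.144% lower). In edgeR 0 of 35 members passed in either state, with 5 and 6 at an unadjusted p under 0.05. Of all 14607 genes, 1278 and 1617 had such a p. With succinate DESeq2 and voom each called 1 member, Ech1, lower in Cre. Over all genes DESeq2 called 81 of 15863 lower and voom 56 of 14607. Ech1 was at 1647, 1755, 1560 and 1832 FPKM in floxed and 1156, 1506, 1152 and 1196 FPKM in Cre hearts given succinate. No Cre sample reached the lowest floxed sample. The log2 difference was -0.47 ± 0.14 (adjusted p = 0.139 in edgeR, 0.0353 in DESeq2 and 0.0405 in voom). Without succinate Ech1 was at 1424, 1842, 1477 and 1700 FPKM in floxed and 1044, 1291, 1467 and 1224 FPKM in Cre hearts, a difference of -0.38 ± 0.14 that did not pass.

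Hacl1 had the smallest p for genotype without succinate. It was higher in all 4 untreated Cre samples than in all 4 untreated floxed samples (log2 difference 0.49 ± 0.13, adjusted p = 0.222). With succinate the Cre minus floxed log2 difference was -0.42 ± 0.15 for Pex11a (adjusted p = 0.241) and -0.25 ± 0.09 for Pex6 (adjusted p = 0.255); neither passed, and both overlapped. Without overlap, 3 members were higher in untreated Cre hearts (3.15% of all genes) and 0 lower (1.43%): Pex13, Hacl1 and Crot. With succinate 4 were lower in Cre (2.40%) and 0 higher (4.63%): Ech1, Phyh, Abcd3 and Crat.

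The ratio of paired enzymes in each sample compares them with no step for library size. Ehhadh per Hsd17b4, the L- per the D-bifunctional enzyme, was 0.0890 ± 0.0253 FPKM per FPKM in untreated and 0.370 ± 0.0777 in treated floxed hearts (SD, n = 4). In Cre hearts it was 0.136 ± 0.0577 and 0.319 ± 0.0344. Thus Hsd17b4 remained the more abundant RNA, and the treated hearts of each genotype had the higher ratio. Abcd2 per Abcd3 was 0.0314, 0.0338, 0.0347 and 0.0363 in untreated floxed, treated floxed, untreated Cre and treated Cre hearts, and Crot per Crat 0.0355, 0.0378, 0.0476 and 0.0496. Crot per Crat ran from 0.0315 to 0.0398 in the floxed samples and from 0.0414 to 0.0566 in the Cre samples. Every Cre sample thus lay above every floxed sample, and this difference was not tested. The FPKM of all 35 genes summed to 2606 ± 211, 2837 ± 94.8, 2238 ± 240 and 2334 ± 166 in those groups. Without Ech1 the sums were 995 ± 38.9, 1139 ± 27.0, 981 ± 66.7 and 1082 ± 24.3.

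**Figure D4:**
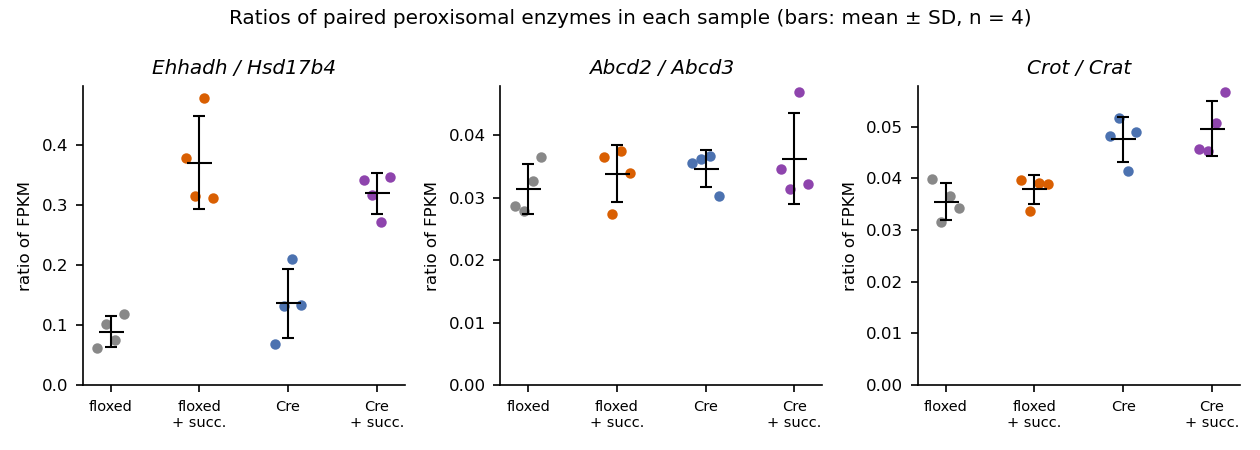
Ratio of FPKM within each sample for 3 pairs of enzymes or transporters (vertical axes from 0), with points for samples and bars for mean ± SD, n = 4. The Ehhadh to Hsd17b4 ratio is higher with succinate in both genotypes, while the ranges of the Abcd2 to Abcd3 ratio overlap between all groups. The Crot to Crat ratio is higher in every Cre sample than in every floxed sample.

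Of 50 other peroxisomal genes, 38 were tested, and 11 rose and none fell with succinate in floxed hearts (median log2 fold change 0.22). The 4 of smallest p were Idh1, a cytosolic and peroxisomal isocitrate dehydrogenase (0.82 ± 0.11), Nudt12 (0.73 ± 0.10) and Nudt7 (0.70 ± 0.11), which are hydrolases of NAD(H) or coenzyme A, and Pxmp4, a membrane protein (0.77 ± 0.14). In Cre hearts 2 of the 38 rose, Idh1 (0.51 ± 0.10) and Acad11 (0.47 ± 0.11), an acyl-CoA dehydrogenase. Over all tested genes 7.48% were called higher and 5.64% lower in floxed hearts, and 0.602% higher in Cre hearts. Of 18 genes of mitochondrial beta-oxidation, 8 rose in floxed hearts (median 0.33), with Cpt1a at 0.78 ± 0.14 and Cpt2 at 0.59 ± 0.11, the carnitine palmitoyltransferases, Etfdh at 0.63 ± 0.13 and Slc25a20 at 0.50 ± 0.12. In Cre hearts none of the 18 passed, while all 18 were positive (median 0.26), as were 7499 of all 14607 tested genes. None of the 5 tested genes of organelle fission, and none of 12 nuclear receptors and coactivators, passed in either genotype. Averaged over genotypes, 1 of the 12 was called higher, against 10.6% of all genes, and 0 of the 5 fission genes. Ppara, which encodes PPAR alpha, had a log2 fold change of -0.45 ± 0.24 in floxed hearts (adjusted p = 0.232) and -0.19 ± 0.24 in Cre hearts (adjusted p = 0.786).

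**Figure D5:**
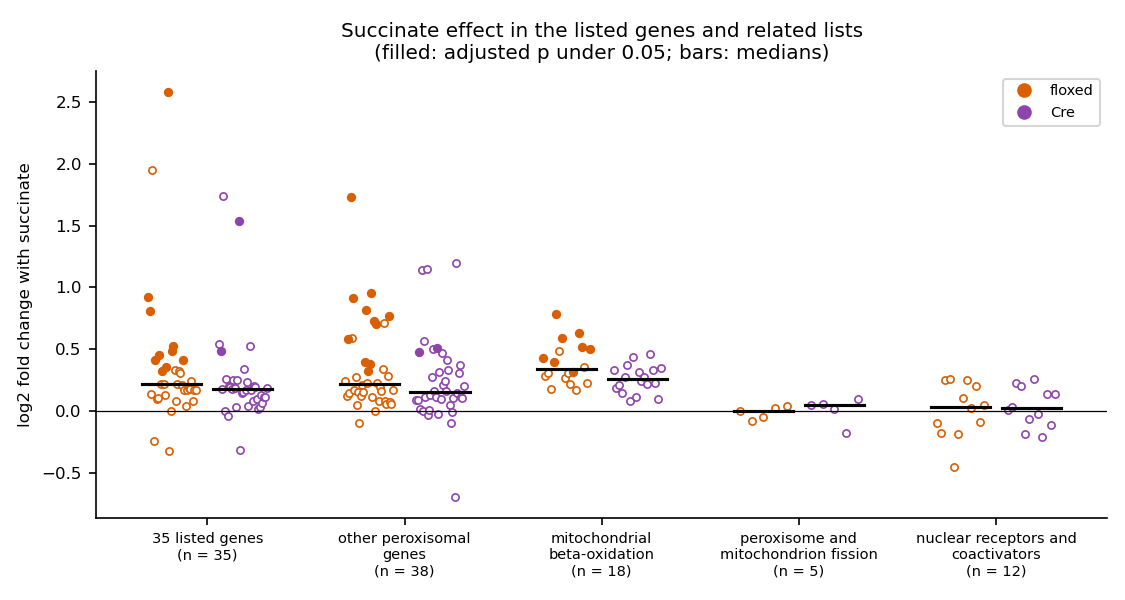
Log2 fold change with succinate (vertical axis) of each tested gene in the 35 listed genes and 4 related lists, in floxed (orange) and Cre (purple) hearts, with filled points for adjusted p under 0.05 and bars for medians. The medians of the 3 metabolic lists lie above 0 in both genotypes, while those of fission genes and nuclear receptors lie near 0.

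Markers of other cells also moved with succinate. Of 6 macrophage markers, 4 fell in floxed hearts, against 5.64% of all genes called lower. The summed FPKM of the 6 was 140 to 212 without and 69.2 to 132 with succinate, and 144 to 214 and 92.3 to 171 in Cre hearts. Atrial markers summed to 212 to 557 FPKM in untreated and 85.4 to 116 FPKM in treated floxed hearts, and to 425 to 2055 and 529 to 1098 FPKM in Cre hearts. Nearly all of these sums was Nppa, a natriuretic peptide gene, at 198 to 542 FPKM in untreated and 73.7 to 105 FPKM in treated floxed hearts; Nppa was the 1 of 4 tested atrial markers that fell, and Myl4, Myl7, Sln and Bmp10 stayed under 1 FPKM in every library. Of the 10 cardiomyocyte markers, Myh6 and Ryr2 rose in floxed hearts, against 7.48% of all genes called higher. The sum of the 10 was 18697 to 21887 without and 20164 to 21746 FPKM with succinate. In Cre compared with floxed hearts, 2 of 5 tested skeletal muscle markers were higher without succinate (0.0890% of all genes). With succinate 4 of 5 were higher, as were 2 of 4 atrial markers (0.548% of all genes). The part of these shifts in the results was not tested. The adipocyte list summed to 30.2 to 41.8 FPKM over the 16 samples, almost all of it Cidea at 29.9 to 41.6 FPKM. The other 7 listed adipocyte genes in the table reached at most 1.17 FPKM (Cfd), with Adipoq at 0 to 21 counts and Ucp1 at 0 to 1 counts. The hepatocyte list summed to 1.12 to 5.81 FPKM, most of it Ahsg at 0.868 to 5.60 FPKM, while Alb had 0 to 5 counts.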

How the data were processed

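Total RNA of 16 heart samples was extracted with TRIzol and sequenced after VAHTS Universal V6 library preparation, per the labels' protocols. The build was GRCm39 and the tools DESeq2, fastp, HTSeq, HISAT2 and R 3.2.0, per the submitters' processing notes; roles, settings and strandedness are not given in the sources used here. The deposited counts are whole-number read counts per gene for 24371 genes, and the authors' FPKM table equals these counts scaled by library total and 1 length per gene (relative spread at most 1.24e-15). All samples carry the same batch label.

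Counts were analysed with edgeR 4.0.16 in R 4.3.3 (filterByExpr with a minimum count of 10, TMM factors of 0.946 to 1.09, robust quasi-likelihood F-test, 1 mean per group, 12 residual degrees of freedom, Benjamini-Hochberg threshold 0.05). Adjusted p-values come from this fit unless another tool is named. Filtering kept 14607 genes and at least 99.95% of counts. Replicates differed beyond counting noise (chi-square of 10.9 to 60.8 per degree of freedom), and the floor of 3 counts covers counting error only. Each library counted as a sample, although this spread cannot tell separate animals from technical repeats. The script was tested on simulated data.

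The members, role lists, related lists and marker lists were chosen with earlier results of these data known. Values per sample are given for up to 3 called members per role with the largest fold change and at least 1 per role, and related lists by up to 4 genes of smallest p. Other members, Acaa1b counts and the Ech1, Hacl1 and Ppara values were named for completeness after their values were seen. Among the lists used only to check tissue, none of 6 fibroblast, 6 endothelial or 5 tested skeletal muscle markers passed with succinate in floxed hearts. Alternatives were DESeq2 1.42.0, limma 3.58.1 (voom with sample weights; log2 of FPKM plus 1 or 0.1; mean FPKM of at least 1), removal of mitochondrially encoded genes (taken from a RefSeq chromosome table), RLE size factors, no or a stricter filter, only the groups compared, a replicate block and leaving out each library. Builds differ, so only RefSeq promoter windows carry coordinates; protein sequences were not used here. Acaa1a and Acaa1b transcripts were aligned from GENCODE M21.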

Additional observations from a re-analysis of the deposited data

Results flagged for a closer look

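In 6 of 140 groups (35 genes in 4 groups of 4 samples) a single sample stood far from the other 3, with a gap, as a share of the group's range, beyond Dixon's critical value for 4 samples; chance alone flags about 1 in 20 groups. Far1, the fatty acyl-CoA reductase of ether lipid synthesis, did so in both Cre groups: untreated replicate 1 was at 4.53 FPKM against 2.99 to 3.13 in the others, and treated replicate 3 at 3.44 FPKM against 2.39 to 2.51. Ech1 was at 1506 FPKM in replicate 2 of the Cre hearts given succinate, against 1152 to 1196 FPKM. Acot8 was at 1.79 FPKM in replicate 2 of the floxed hearts given succinate, against 1.26 to 1.32 FPKM. Pex7 was low in replicate 3 of the floxed hearts given succinate, at 12.4 FPKM against 13.2 to 13.3, and in replicate 2 of the untreated Cre hearts, at 11.8 FPKM against 12.7 to 12.9.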

How the results depend on the processing

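No fold change of a member that passed changed sign under any alternative; 4483 member values kept their side of the threshold, 150 lost and 36 gained a call. For succinate in floxed hearts 1917 genes were called. The number was 2531 with DESeq2 (10 members higher) and 2925 with voom (14 members higher and 1 lower). It was 954 and 1122 with log2 FPKM plus 1 and plus 0.1 (5 members higher in each). With 1 library left out it was 1018 to 1989, with 5 to 10 members higher and 0 to 1 lower. For succinate in Cre hearts 134 genes were called: 483 with DESeq2, 46 with only the groups compared (0 members), 44 and 38 with log2 FPKM plus 1 and plus 0.1 (1 member each), and 22 to 142 with 1 library left out (0 to 3 members); without a filter 1 member was called. Averaged over genotypes, log2 FPKM plus 1 called 1798 genes, with 8 members higher and 0 lower, and leaving out 1 library gave 2015 to 2899 genes and 9 to 18 members higher, with 1 lower throughout. For genotype without succinate 16 genes became 86 (DESeq2), 3 (only the groups compared), 7 (mean FPKM of at least 1) and 4 to 23 (1 library left out). For genotype with succinate 101 became 307 (DESeq2), 190 (voom), 41, 52 and 51 (log2 FPKM plus 1, plus 0.1, and with a minimum mean of 1) and 44 to 92, with 1 member lower in DESeq2 and in voom. The interaction called 3 genes with DESeq2, 2 and 1 with log2 FPKM plus 1 and plus 0.1, and 0 with any library left out. Leaving out untreated floxed replicate 4 together with untreated Cre replicate 1, chosen after seeing the data, gave 40 genes and 1 member for succinate in Cre hearts, 81 and 158 genes for genotype without and with succinate, and 7 for the interaction. The share of higher among all calls was 57.0% in floxed hearts and 55.6% averaged, but 43.3% and 42.1% with a mean FPKM of at least 1. The causes were not tested. Equal replicate numbers did not pair the samples (correlations of deviations from -0.121 to 0.320, own number best in 5 of 24 cases); with a replicate block 1903 genes and 10 members were called in floxed hearts, 136 genes and 1 member in Cre hearts, 2826 genes and 15 members higher averaged, 11 and 92 genes for genotype without and with succinate, and 0 for the interaction. Depth limits Acaa1b and Sucnr1, which had few counts in every library.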
